A study of Rattus norvegicus with 6 samples.

Results

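A set of 6 genes of the adipogenic lineage was followed in cultured mesenchymal stromal cells of rat bone marrow, which can develop into bone, cartilage or fat cells. These are Pparg, Cebpa, Fabp4, Lpl, Adipoq and Cd36, 6 of the 30452 genes listed, chosen by identifier as genes of the fat fate. The cells were wild type in both groups and came from an osteogenic differentiation experiment in culture. The control group received no material (n = 3 libraries). The other group was cultured together with AAT-ZCG, an enzyme-linked hydrogel designed for diabetic bone defects (n = 3 libraries). The abbreviation is given as the labels give it, and the sources used here do not state the strain, age or number of donor animals, the duration of culture, or whether the libraries came from separate cultures. The p-values therefore measure the spread between these libraries, which may be technical.

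Marrow stromal cells choose between bone and fat. In the fat programme the nuclear receptor PPARγ (Pparg) and the transcription factor C/EBPα (Cebpa) sustain each other and switch on genes for taking up and storing fatty acids. Lipoprotein lipase (Lpl) frees fatty acids from circulating triglyceride, CD36 helps them across the membrane, the carrier FABP4 binds them in the cytoplasm, and adiponectin (Adipoq) is a hormone secreted by mature fat cells. Several of these genes are not specific to fat: Fabp4 and Cd36 are also made by macrophages and endothelial cells, and Lpl by macrophages. Markers of stromal cells, macrophages and endothelial cells were not analysed here, since the files pair no identifier with a gene name, so the labelled cell type was not checked and the part of other cells in the results was not tested. In such bulk RNA more cells of a kind and more RNA per cell cannot be told apart.

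The libraries held between 30601703 and 93728651 counts, and library 2 was the deepest in each group. All 6 genes had counts in every library and passed the filter on low counts. Pparg, Cebpa, Fabp4, Lpl and Cd36 exceeded its limit of 0.269 CPM (counts scaled to a common library total, elsewhere adjusted by TMM, which allows for RNA composition) in all 6 libraries, and Adipoq did so in 2 controls and in all 3 hydrogel libraries.

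Promoter sequences are shown for the members that rose with hydrogel and that matched the table used here, to give the sequence context of the rise. They were taken from RefSeq (build GRCr8) and run 5′ to 3′ on the strand of the gene, from 250 bases before the annotated start to 50 after it. Of the 6 genes, 4 matched an entry: Pparg, Cebpa, Adipoq and Cd36. The Adipoq window lies at chr11:91240120-91240419 on the minus strand, the Cd36 window at chr4:18246332-18246631 on the plus strand and the Cebpa window at chr1:96896334-96896633 on the plus strand. Capitals mark matches on either strand to CCAAT, to the TATA box letters TATAAA or to a short form of the C/EBP motif, TTGCNNAA.
Adipoq promoter: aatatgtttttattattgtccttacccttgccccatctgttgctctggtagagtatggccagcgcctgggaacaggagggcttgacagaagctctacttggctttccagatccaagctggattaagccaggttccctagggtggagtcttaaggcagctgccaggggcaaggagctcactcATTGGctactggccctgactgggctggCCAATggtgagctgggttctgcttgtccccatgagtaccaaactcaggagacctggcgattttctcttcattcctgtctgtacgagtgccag
Cd36 promoter: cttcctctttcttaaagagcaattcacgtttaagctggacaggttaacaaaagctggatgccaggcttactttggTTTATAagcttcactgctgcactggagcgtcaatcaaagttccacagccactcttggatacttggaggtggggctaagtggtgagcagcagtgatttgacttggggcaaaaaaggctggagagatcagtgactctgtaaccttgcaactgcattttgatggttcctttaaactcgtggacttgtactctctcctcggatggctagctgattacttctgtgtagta
Cebpa promoter: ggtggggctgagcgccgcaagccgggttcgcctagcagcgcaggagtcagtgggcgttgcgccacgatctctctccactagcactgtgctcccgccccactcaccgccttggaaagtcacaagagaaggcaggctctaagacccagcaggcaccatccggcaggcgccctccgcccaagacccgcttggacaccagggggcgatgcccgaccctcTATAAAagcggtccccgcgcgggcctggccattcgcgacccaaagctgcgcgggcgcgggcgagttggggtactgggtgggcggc

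The Adipoq window held CCAAT on both strands, starting at positions -69 and -42 from the gene start. The match at -69 is on the other strand and reads ATTGG. The window of the second start of Pparg, a member that did not pass the test, also held CCAAT, at position -103. Of the 33469 RefSeq windows of the same 300 bases, 37.5% held CCAAT. The Cebpa window held TATAAA at position -35, and the Cd36 window held it on the other strand at position -175. The window of the first Pparg start held TATAAA too, on the other strand at position 29 after the start. TATAAA was found in 14.2% of all windows. The nuclear receptor half-site AGGTCA, found in 16.2% of all windows, was in none of the 5 windows of the 4 genes on either strand. The direct repeat AGGTCANAGGTCA, a form bound by PPARγ with its partner RXR that contains the half-site, was in 18 of all 33469 windows. TTGCNNAA, found in 10.6% of all windows, was in 1 window of the members, that of the second Pparg start. These are matches of letters in short windows and not binding sites.

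Gene length was the only check of the symbols at hand, because the files list identifiers without names. The length implied by a gene's count, its FPKM (a value per gene length, here counts scaled by gene length and library total) and the library total was the same in all 6 libraries for every member. It was 2008 bases for Pparg, 2980 for Cebpa, 1719 for Fabp4, 3683 for Lpl, 1487 for Adipoq and 2595 for Cd36. An equal length in every library follows from FPKM being made from these counts, so it checks no symbol. Each length was shared with 4 to 10 other genes of the 21162 with a length, so it does not identify a gene. The RefSeq table for GRCr8, a build not tied to these counts, gives gene spans longer than the implied length for 5 members. For Cebpa its span is 2673 bases, shorter than the implied 2980, and which annotation the counts used is not given in the sources used here.

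Fabp4, Cd36 and Adipoq rose over 2-fold with hydrogel, Cebpa rose 1.28-fold and Lpl fell slightly, while Pparg did not pass the test. By the quasi-likelihood test of edgeR, with p adjusted after Benjamini-Hochberg over the 14715 genes tested and a limit of 0.05, 5 of the 6 members were called, against 34.5% of all genes tested. Of these, 4 were higher with hydrogel and 1 was lower. Over all genes, 17.5% were called higher and 17.1% lower. The 3 members that also passed 2-fold were all higher, where 3.61% of all genes passed in that direction. Control and hydrogel libraries did not overlap for 5 of the 6 members, nor for 47.3% of all genes. The median log2 fold change was 0.86 over the 6 members and 0.00 over all genes tested. The members were chosen with earlier results of these data known, so these shares and medians are a description only.

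**Figure D1:**
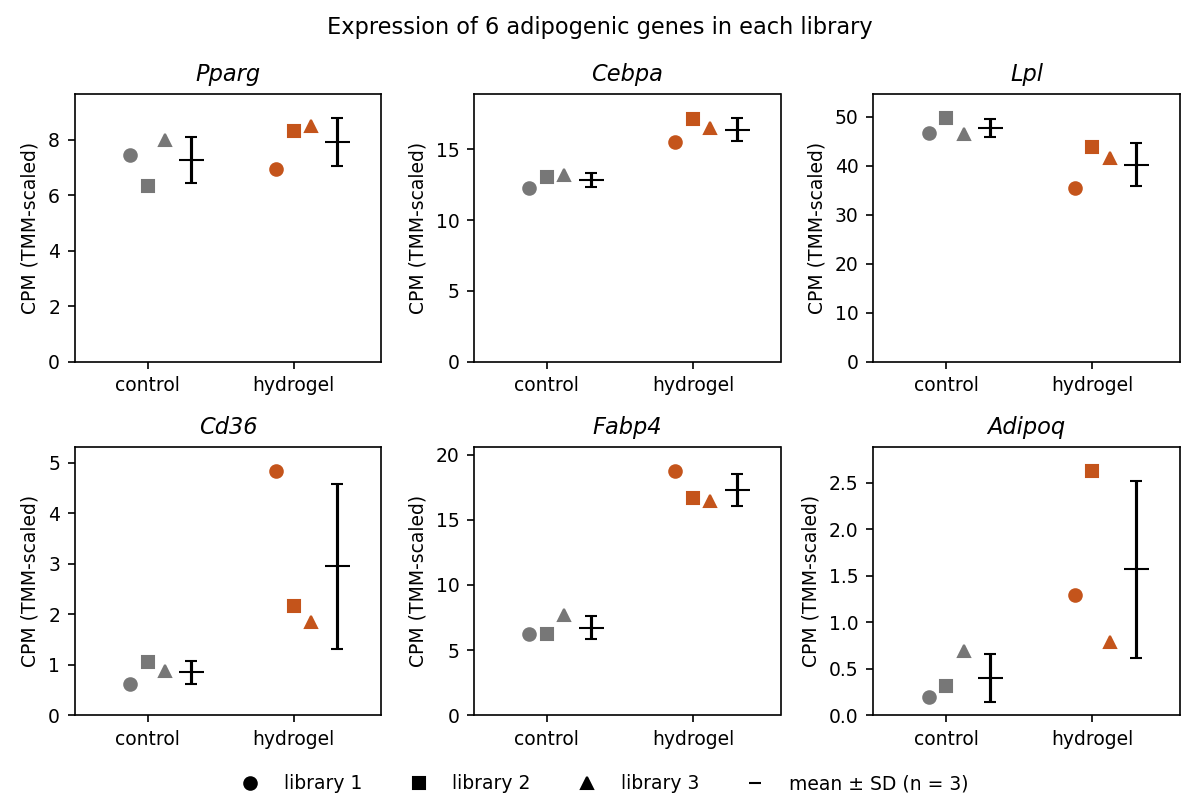
CPM scaled by TMM (vertical axis, from 0) of each gene in the 3 control (grey) and 3 hydrogel (orange) libraries, with marker shape for the library number and black bars for the mean ± SD (n = 3). Groups are apart for all genes but Pparg, and the hydrogel libraries spread widely for Cd36 and Adipoq.

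Of the 2 transcription factors, Pparg did not pass the test and Cebpa rose slightly. Pparg (ENSRNOG00000008839) stood at 7.44, 6.35 and 7.97 CPM in control libraries 1 to 3 and at 6.93, 8.33 and 8.50 CPM in hydrogel libraries 1 to 3. Hydrogel library 1 lay below 2 of the controls, so the groups overlapped. The means were 7.25 ± 0.83 CPM in controls and 7.92 ± 0.86 CPM with hydrogel (SD, n = 3), from 215 to 663 counts per library. The log2 fold change of 0.14 (edgeR adjusted p = 0.46, SE 0.14) did not pass the test. Its 95% interval runs from a 0.90-fold to a 1.35-fold level, so a 2-fold change of Pparg in either direction lies outside it. Pparg has alternative starts that give 2 receptor forms, one of them typical of fat cells, and counts per gene do not separate them.

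Cebpa (ENSRNOG00000010918), which maintains Pparg expression and insulin sensitivity in fat cells, rose by a small and even amount. Its level was 12.3, 13.1 and 13.2 CPM in the control libraries and 15.5, 17.1 and 16.5 CPM in the hydrogel libraries. Every hydrogel library was above every control. The mean went from 12.8 ± 0.49 to 16.4 ± 0.83 CPM (SD, n = 3), and the log2 fold change was 0.35 (edgeR adjusted p = 0.0058, SE 0.09). The 95% interval is 1.12-fold to 1.46-fold. With libraries 1 and 3 of each group alone it was 0.33 and not called (edgeR adjusted p = 0.087, the highest of 19 alternatives, which went down to 0.0044). Cebpa counts were 1.79 ± 0.23 times the Pparg counts in controls and 2.08 ± 0.15 times with hydrogel (SD, n = 3). This ratio within each library needs no scaling but is not adjusted for gene length. The exact two-sided permutation p was 0.3, in a design of 3 against 3 that cannot go below 0.1, so it does not show whether the ratio differed.

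Among the genes of fatty acid handling, the intracellular carrier Fabp4 (ENSRNOG00000010805) gave the most even rise. Control libraries stood at 6.20, 6.27 and 7.71 CPM and hydrogel libraries at 18.7, 16.7 and 16.5 CPM. The lowest hydrogel library was at 2.45 times the control mean and the highest at 2.79 times. The mean rose from 6.73 ± 0.86 to 17.3 ± 1.24 CPM (SD, n = 3). The log2 fold change was 1.37 (edgeR adjusted p = 1.74e-07, SE 0.11), with a 95% interval of 2.18-fold to 3.05-fold. By its p-value Fabp4 ranked 178 among the 14715 genes, and 96.3% of them had a smaller absolute log2 fold change.

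Lpl (ENSRNOG00000012181), the secreted lipase, went the other way. It was measured at 46.8, 49.8 and 46.4 CPM in controls and at 35.4, 43.8 and 41.6 CPM with hydrogel, from 1097 to 4696 counts per library. All hydrogel libraries were below all controls, and hydrogel library 1 was the lowest. The mean went from 47.7 ± 1.84 to 40.3 ± 4.38 CPM (SD, n = 3). The log2 fold change was -0.24 (edgeR adjusted p = 0.017, SE 0.07), a level of 0.85-fold with a 95% interval of 0.76-fold to 0.94-fold. The call depends on single libraries. Without hydrogel library 1 the log2 fold change was -0.16 (edgeR adjusted p = 0.060), and without control library 2 it was -0.21 (edgeR adjusted p = 0.095). Over 19 alternatives the adjusted p of Lpl ran from 0.0012 to 0.095.

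The rise of Fabp4 also shows in its ratio to other members within a library, which is free of scaling. Fabp4 counts were 0.132, 0.126 and 0.166 times the Lpl counts in control libraries and 0.530, 0.381 and 0.396 times in hydrogel libraries. The groups did not overlap, and the mean log2 ratio was higher by 1.62 with hydrogel (exact two-sided permutation p = 0.1, the smallest possible). The ratio to Pparg, which was not called, went from 0.93 ± 0.08 to 2.22 ± 0.42 Fabp4 counts per Pparg count (SD, n = 3, exact two-sided permutation p = 0.1). These ratios use the same Fabp4 counts as the test, and the fall of Lpl adds to the ratio to Lpl, so they are not separate support. By themselves they say nothing of the direction of Lpl.

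**Figure D2:**
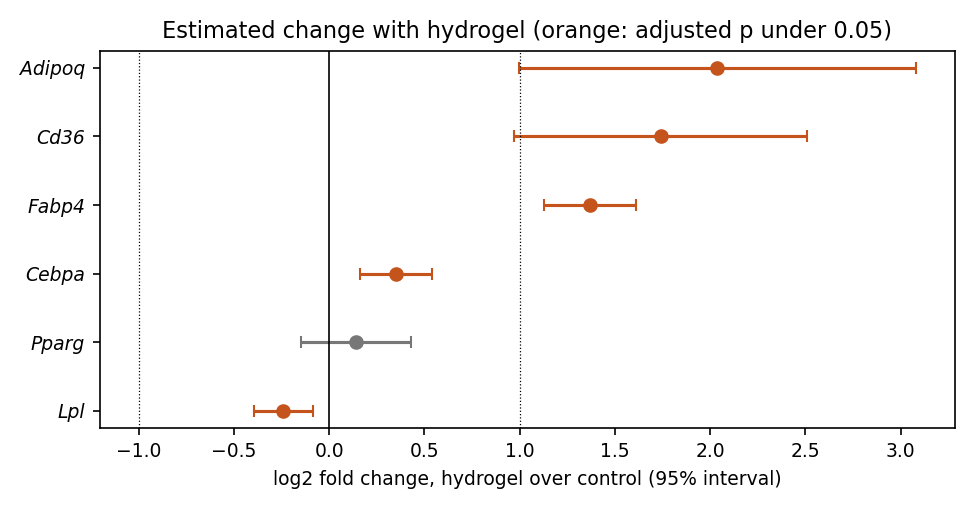
Estimated log2 fold change of each gene, hydrogel over control (horizontal axis), with its 95% interval from the edgeR quasi-likelihood fit. Orange marks an adjusted p under 0.05 and dotted lines mark 2-fold. The interval of Fabp4 lies wholly above 2-fold, those of Cd36 and Adipoq reach just under it, and that of Pparg includes 0.

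Cd36 (ENSRNOG00000005906), the membrane receptor and fatty acid translocase, rose from a low level and unevenly. Its raw counts were 22, 100 and 34 in control libraries and 150, 172 and 56 in hydrogel libraries. Scaled to depth these are 0.61, 1.06 and 0.87 CPM in controls and 4.84, 2.16 and 1.85 CPM with hydrogel. Every hydrogel library was above every control, and hydrogel library 1 was at 5.71 times the control mean while the other hydrogel libraries were at 2.55 and 2.18 times. The 95% Poisson interval of hydrogel library 1, 4.09 to 5.68 CPM, does not reach those of hydrogel libraries 2 (1.85 to 2.51 CPM) and 3 (1.39 to 2.40 CPM). Such intervals cover counting error only.

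The mean of Cd36 went from 0.85 ± 0.23 to 2.95 ± 1.64 CPM (SD, n = 3). The log2 fold change was 1.74 (edgeR adjusted p = 0.0014, SE 0.36), with a 95% interval of 1.96-fold to 5.70-fold. Without hydrogel library 1 it was 1.21 and still called (edgeR adjusted p = 0.0088). The call was lost in 1 of 19 alternatives, limma on log2(FPKM + 1) without a filter (log2 fold change 0.64, limma adjusted p = 0.085), and the lowest adjusted p was 3.07e-08 (edgeR without a low-count filter). In the RefSeq gene table (GRCr8), Cd36 is neighboured by Cd36l1 and Cd36-ps1, genes with related names. How reads shared with such copies were counted is not given in the sources used here, and the Cd36 counts are uncertain to that extent.

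Adipoq (ENSRNOG00000001821), the hormone made by mature fat cells, had the lowest mean FPKM of the members in both groups and the widest relative spread between libraries. Its raw counts were 7, 30 and 27 in control libraries and 40, 209 and 24 in hydrogel libraries. This is 0.19, 0.32 and 0.69 CPM in controls and 1.29, 2.63 and 0.79 CPM with hydrogel. The groups were apart by a narrow margin, since hydrogel library 3 at 0.79 CPM (95% Poisson interval 0.51 to 1.18) and control library 3 at 0.69 CPM (0.46 to 1.01) agree within counting error. Hydrogel library 2 was at 6.53 times the control mean, library 1 at 3.21 times and library 3 at 1.97 times.

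The mean of Adipoq went from 0.40 ± 0.26 to 1.57 ± 0.95 CPM (SD, n = 3). The log2 fold change was 2.04 (edgeR adjusted p = 0.0041, SE 0.49), with a 95% interval of 2.00-fold to 8.46-fold. This call rests on hydrogel library 2, the deepest of its group: without it the log2 fold change was 1.38 (edgeR adjusted p = 0.089). With libraries 1 and 3 of each group alone it was 1.21 (edgeR adjusted p = 0.23), and on a log2(FPKM + 1) scale it was 0.65 (limma adjusted p = 0.056), a scale that understates changes of low genes. Over 19 alternatives its adjusted p ran from 1.4e-06 to 0.23.

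**Figure D3:**
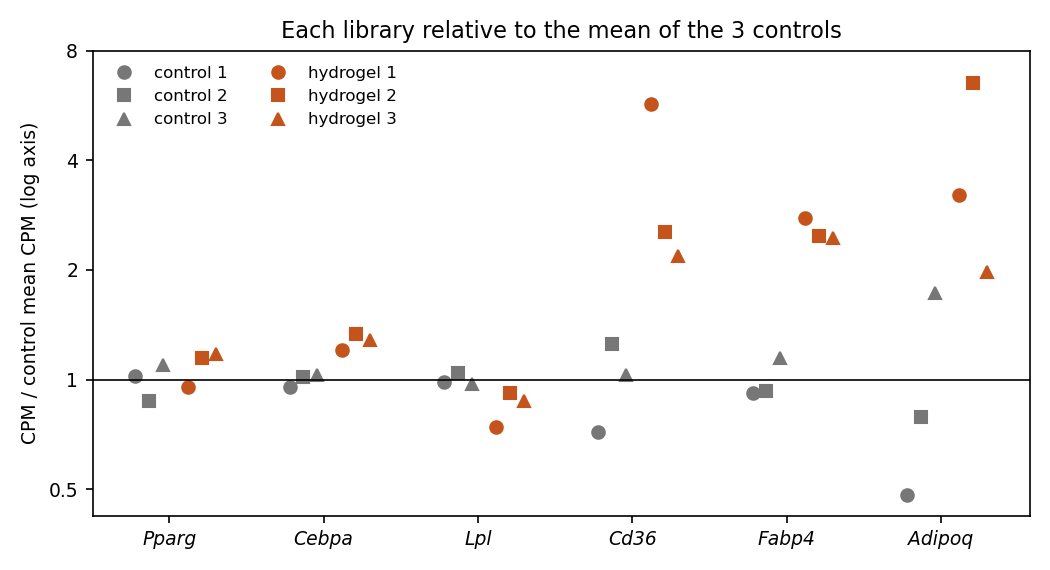
CPM of every library divided by the mean of the 3 controls (vertical axis, log scale, with a line at 1), for controls (grey) and hydrogel libraries (orange), with marker shape for the library number. Hydrogel library 1 is highest for Cd36 at 5.71 and hydrogel library 2 is highest for Adipoq at 6.53, while Fabp4 lies between 2.45 and 2.79 in all 3.

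Different libraries were highest for different members within a group. Hydrogel library 1 had the highest Fabp4 and Cd36 of the hydrogel libraries and the lowest Pparg, Cebpa and Lpl. Hydrogel library 2 had the highest Adipoq, Lpl and Cebpa. In controls, library 3 was highest for Pparg, Cebpa, Fabp4 and Adipoq, but library 2 was highest for Lpl and Cd36. The spread of Cd36 and Adipoq was also wide beside genes of like mean CPM over all 6 libraries. The members that rose over 2-fold lay below the centre of that window in controls and above it with hydrogel. Lower genes varied more, so their shares in controls may be too high, and shares of the 2 groups are not like for like. With hydrogel the coefficient of variation of Cd36 was 55.8%, above that of 98.5% of the 1011 tested genes within 0.5 log2 units of its mean CPM, whose median was 20.0%. In controls it was 26.8%, above 77.0% of them. For Adipoq it was 64.9% in controls and 60.5% with hydrogel, above 98.6% and 94.8% of 924 such genes. Fabp4 varied by 12.8% in controls, above 85.7% of 1982 such genes, and by 7.18% with hydrogel, above 40.5% of them. Cebpa varied by 3.84% and 5.07%, above 21.0% and 24.7% of 2163 such genes. Lpl varied by 3.87% in controls and by 10.9% with hydrogel, the latter above 92.5% of 2164 genes of like abundance. With 3 libraries each, these differences in spread were not tested.

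Compared per gene length, the order of the 6 genes was led by Lpl in both groups. In controls the deposited FPKM was 13.1 ± 0.50 for Lpl, 4.35 ± 0.14 for Cebpa, 3.94 ± 0.48 for Fabp4, 3.64 ± 0.41 for Pparg, 0.33 ± 0.09 for Cd36 and 0.27 ± 0.17 for Adipoq (SD, n = 3). Cebpa and Fabp4, Fabp4 and Pparg, and Cd36 and Adipoq overlapped in their libraries, so these neighbours were not separated.

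With hydrogel Fabp4 moved up to second place. The FPKM was 10.8 ± 1.14 for Lpl, 9.98 ± 0.74 for Fabp4, 5.44 ± 0.26 for Cebpa, 3.91 ± 0.42 for Pparg, 1.13 ± 0.63 for Cd36 and 1.04 ± 0.63 for Adipoq (SD, n = 3). Lpl and Fabp4 now overlapped in their libraries, as did Cd36 and Adipoq, while Fabp4, Cebpa and Pparg were each apart from the next gene. Cd36 and Adipoq thus remained the lowest members after their rise, with Adipoq at or under 1.74 FPKM in every library and Cd36 at or under 1.85 FPKM.

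**Figure D4:**
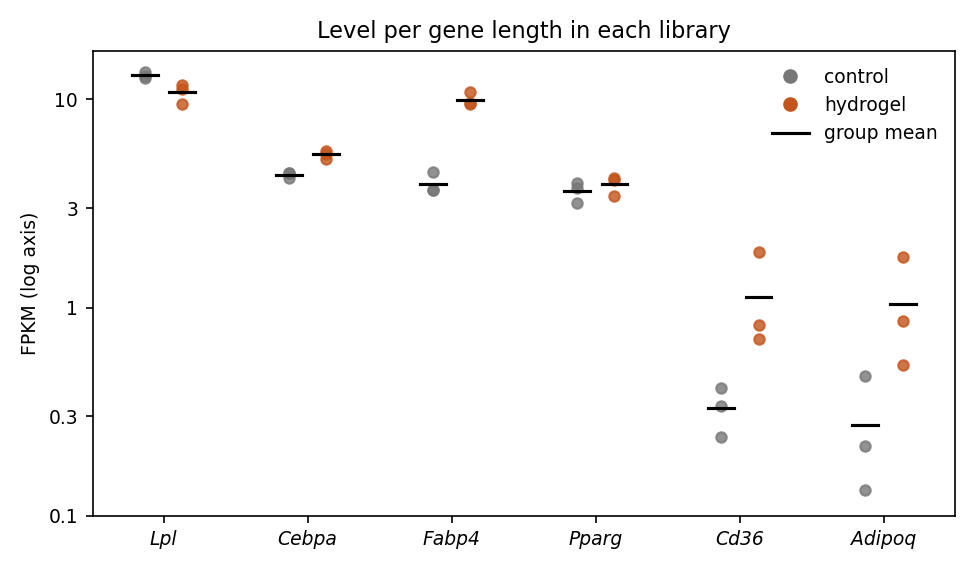
Deposited FPKM of each gene (vertical axis, log scale) in the control (grey) and hydrogel (orange) libraries, with black lines for group means, ordered by the control mean. Fabp4 moves from 3.94 to 9.98, next to Lpl, and Cd36 and Adipoq stay lowest.

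Other identifiers followed nearly the same pattern over the 6 libraries as Cebpa, the rising member with the highest CPM averaged over all 6 libraries, and as Lpl, the falling one. With hydrogel alone the mean CPM of Fabp4 was above that of Cebpa, but Cebpa was slightly higher in hydrogel libraries 2 and 3. Among 10248 other genes averaging 5 CPM or more, the closest to Cebpa in log2 CPM were ENSRNOG00000015020 (Pearson r = 0.998 over 6 libraries) and ENSRNOG00000029726 (r = 0.996). ENSRNOG00000015020 rose from 262 ± 5.97 to 315 ± 12.4 CPM (SD, n = 3), and its log2 fold change was 0.27 (edgeR adjusted p = 2.3e-04, SE 0.05). ENSRNOG00000029726 rose from 21.3 ± 1.04 to 27.4 ± 1.24 CPM, and its log2 fold change was 0.36. The closest to Lpl were ENSRNOG00000018964 (r = 0.998), which fell from 31.6 ± 1.35 to 26.3 ± 2.90 CPM, and ENSRNOG00000026951 (r = 0.995), which fell from 318 ± 14.8 to 232 ± 40.2 CPM. All 4 identifiers passed the test, as did 34.5% of all genes tested. They were picked for likeness to a called member in the same libraries, so their calls add no support. With only 6 libraries in 2 groups, high values of r are common: 231 genes had an r over 0.95 with Cebpa and 204 with Lpl.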

How the data were processed

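RNA sequencing counts of 3 control and 3 hydrogel libraries were used. Per the labels' protocols, TRIzol was used for RNA extraction and a VAHTS Universal V6 kit for the libraries. The authors deposited raw counts per gene, and FPKM per library that equal those counts divided by the library total and a gene length, per the file headers and values. Aligner, counter and strandedness are not given in the sources used here. The submitters' processing notes name the mouse builds GRCm38 and mm10, while identifiers and organism are rat, so no coordinates of the counted genes are given.

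The members and lists were chosen with earlier results of these data known. The lists of other adipogenic genes and cell type markers need gene names and were not analysed here. All 6 members are named. The identifiers set beside them are the 2 with the highest Pearson r to the rising and the falling member with the highest CPM averaged over all libraries.

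Counts of all genes were tested with edgeR 4.0.16 in R 4.3.3 (filterByExpr, TMM, quasi-likelihood F test, group as the term, Benjamini-Hochberg), which kept 14715 genes. CPM are scaled by TMM, and log2 CPM used a prior count of 2. Standard errors were derived from log2 fold changes and their F statistics. On simulated counts the test recovered 58 of 100 genes changed 1.5-fold and 78 of 100 changed 2-fold, with 6 false calls. Far fewer genes changed in that simulation than were called in the data. Alternatives were DESeq2 1.42.0, limma 3.58.1 on log2 FPKM, other scalings and filters, a robust fit, a replicate block, thinning, other thresholds and leaving out libraries.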

Additional observations from a re-analysis of the deposited data

How the results depend on the processing

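No alternative reversed the direction of any member. Fabp4 kept its call in all 19 fits (log2 fold change 1.15 to 1.47), and Pparg was called in none (0.00 to 0.22). The number of members called was 5, and it was 4 or 5 when 1 library was left out. It was 2 with limma on log2(FPKM + 1) of unfiltered genes, 3 with libraries 1 and 3 of each group alone, and 3 past 2-fold at either an adjusted or an unadjusted p under 0.05. Unfiltered limma lost the calls of Lpl (-0.25), Adipoq (0.65) and Cd36 (0.64), and filtered limma on the same scale lost Adipoq (0.65). Libraries 1 and 3 alone lost Cebpa (0.33) and Adipoq (1.21), with 4 libraries in place of 6. Leaving out 1 library moved Lpl between -0.31 and -0.16 and Adipoq between 1.38 and 2.58, and each lost its call as given above. The cause of these losses was not tested.

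The other scalings kept the median log2 fold change of all genes between -0.02 and 0.01 and changed no member's call. A replicate block on the sample number gave the same 5 calls among members. Same-numbered libraries correlated at only 0.022, 0.051 and 0.013 in their deviations from the group means, though each library correlated best with its own number. No limit was set for these values, and whether same-numbered libraries belong together was not tested. The order by FPKM was the same with a TPM-like value. The lowest counts were 7 for Adipoq and 22 for Cd36. Thinned to the smallest library, both were still called (log2 fold change 2.01 and 1.76). At full depth the hydrogel libraries of Adipoq and Cd36 spread beyond counting error (chi-square per degree of freedom 23.4 and 34.8), as did those of Lpl (19.2). In controls the value was 7.22 for Adipoq, 2.95 for Cd36 and 4.40 for Lpl.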
